A study of Mus musculus with 2 samples.

Results

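Lyz1 and Lyz2, the lysozyme genes of the mouse, were measured as UMIs, tags that count captured RNA molecules, in single CD45+ immune cells sorted from tumours of C57BL/6 mice. The members were the features whose symbol is Lyz1 or Lyz2, 2 of 31053 in the files. Each of the 2 groups was 1 library. The first library is labelled Ythdf2 cKO, where cKO stands for conditional knockout and Ythdf2 encodes a protein that binds RNA at the m6A mark, and the second is labelled WT. The labels give neither the Cre driver, the tumour, the age of the mice nor how many animals were pooled. After filtering, 9086 cells of the library labelled Ythdf2 cKO and 10992 cells of the library labelled WT were kept, with medians of 7997.5 and 5128 UMIs per cell. With 1 library per group there is no replicate check: no test was possible, each difference describes these 2 libraries, and intervals cover counting error only. The genes were chosen by symbol, and selected on the lower Lyz2 UMI level of the library labelled Ythdf2 cKO already known from these data, so that difference is given as a description.

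Lysozyme is a secreted enzyme that cuts the peptidoglycan of bacterial cell walls, and phagocytes also keep it in granules and lysosomes. Lyz2 encodes the M form of monocytes, macrophages and neutrophils, and its RNA is among the most abundant of these cells. Lyz1 encodes the P form, best known from the Paneth cells of the small intestine. The Lyz2 locus also carries the LysM-Cre knock-in that is in common use for deletion in myeloid cells. As the labels do not name the driver used, the part of such an allele in the Lyz2 level was not tested.

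The genes lie side by side on the minus strand of chromosome 10 (GRCm38). Lyz2 (ENSMUSG00000069516) spans chr10:117277331-117282321 and Lyz1 (ENSMUSG00000069515) spans chr10:117287797-117292868, each in 4 exons. Their coding sequences (GENCODE vM21 annotation) differ at 22 of 447 bases, so that 95.1% were identical. The first 300 coding bases are printed because they show how much the copies share near the end that 5′ tags read, which bears on how reads are told apart, and capitals mark the 20 that differ.
Lyz2: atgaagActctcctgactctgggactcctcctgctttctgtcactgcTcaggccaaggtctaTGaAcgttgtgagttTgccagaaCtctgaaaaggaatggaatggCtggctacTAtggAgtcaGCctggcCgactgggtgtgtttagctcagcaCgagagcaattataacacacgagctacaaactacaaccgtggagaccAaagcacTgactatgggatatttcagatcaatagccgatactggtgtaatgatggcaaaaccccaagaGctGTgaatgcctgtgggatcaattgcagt
Lyz1: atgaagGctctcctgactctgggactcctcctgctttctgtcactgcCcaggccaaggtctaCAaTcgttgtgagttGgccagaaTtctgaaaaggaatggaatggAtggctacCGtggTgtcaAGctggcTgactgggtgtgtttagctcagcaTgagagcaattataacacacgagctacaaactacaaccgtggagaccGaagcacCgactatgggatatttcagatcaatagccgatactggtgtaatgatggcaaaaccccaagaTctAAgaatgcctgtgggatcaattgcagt

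Over the whole transcripts, untranslated parts included, 96.0% of 1262 aligned bases were identical. Of the 1164 windows of 100 bases, the read length, that the Lyz1 transcript holds, 24 (2.06%) were identical in Lyz2, 147 (12.6%) had at most 1 difference, and the median was 3 differences. In the first 500 transcribed bases, nearer the end that 5′ tags read, 19 of 401 windows (4.74%) were identical. The longest identical run there was 118 bases. A read in a window with at most 1 difference could be counted for the other gene after a sequencing error. A Lyz1 level far below that of Lyz2 in the same cells is therefore uncertain, and how the authors' counting treated such reads is not given in the sources used here.

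The sequence upstream was shared as well. From 150 to 51 bases before the RefSeq start (GRCm38.p6, minus strand, chr10:117282323-117282422 for Lyz2 and chr10:117292919-117293018 for Lyz1), 84.8% of 99 aligned bases were identical; capitals mark differing bases.
Lyz2 upstream: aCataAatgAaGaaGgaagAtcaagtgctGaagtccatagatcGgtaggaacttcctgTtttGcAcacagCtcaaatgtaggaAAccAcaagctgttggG
Lyz1 upstream: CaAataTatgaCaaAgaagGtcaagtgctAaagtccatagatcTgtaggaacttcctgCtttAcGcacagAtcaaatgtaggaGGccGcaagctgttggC
The 50 bases next to the RefSeq start were identical in both. The Lyz2 span given above starts further upstream, at 117282321 on the minus strand. Nearly all of these bases therefore lie inside the GENCODE transcript of Lyz2, and not before it. The letters AGGAAGT, found in sites of ETS factors, lay on the strand opposite to the gene 100 bases upstream in both genes. On either strand within the 250 bases upstream of the start, the only part searched, 7.69% of 32851 promoters hold them. Of the other letters searched on both strands, GAGGAA, the core of PU.1 sites, was in neither gene (23.3% of promoters hold it), and TTNNGNAA, of C/EBP sites, lay 55 bases upstream in Lyz2 and 209 in Lyz1 (36.8%). TTAAATA lay 28 bases upstream of the RefSeq start in both (4.18%), which in Lyz2 is inside the GENCODE transcript. A match is a description of letters and not a measured site, and no match says only that the letters are not in this window.

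Ythdf2 itself went against the label. It stood at 407 CPM (UMIs of the gene, scaled to a class total of 1e+06 UMIs) in monocyte-like cells of the library labelled Ythdf2 cKO and at 53.3 CPM in those of the library labelled WT, a ratio of 7.64 (exact 95% interval 7.06 to 8.28). In macrophage-like cells the levels were 392 and 80.6 CPM. The ratio was 6.80 in neutrophil-like, 2.26 in cDC2-like and 2.46 in mature DC-like cells. It was nearer to equal levels elsewhere, at 1.15 in plasmacytoid DC-like, 1.03 in B-like, 1.12 in NK-like and 1.08 in other T-like cells. In CD8 T-like cells it was 1.24 (1.05 to 1.47) and in regulatory T-like cells 1.30 (0.957 to 1.78). The libraries hold 5′ tags, and the labels do not say which part of the gene was removed. Tags outside the deleted part check nothing, so the Ythdf2 level neither bears out the labels nor shows them to be swapped, and every direction below rests on the labels as given.

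Lyz2 was lower in the library labelled Ythdf2 cKO in all 11 cell classes, although a stricter mitochondrial limit turned B-like and plasmacytoid DC-like cells round, and among named classes it was highest in monocyte-like cells of both libraries. In monocyte-like cells, named from genes such as Ly6c2, Ccr2, Vcan and Fn1 and never from lysozyme, Lyz2 stood at 3539 CPM (2063 cells) in the library labelled Ythdf2 cKO and at 7874 CPM (1487 cells) in the library labelled WT. The ratio was 0.449 (0.446 to 0.453), or -1.15 on the log2 scale of CPM plus 1. In macrophage-like cells, named from C1qa, C1qb, Mrc1 and Trem2, it stood at 1676 CPM (200 cells) and 4151 CPM (2283 cells), a ratio of 0.404 (0.395 to 0.413). A level at least 1.5-fold lower was found for 2.58% of 7205 genes in monocyte-like cells and for 2.46% of 8105 genes in macrophage-like cells, among genes of at least 10 CPM in either library. Lyz2 had the 16th lowest log2 ratio of the first set and the 17th lowest of the second. By level it was the 23rd most abundant RNA of monocyte-like cells in the library labelled Ythdf2 cKO and the 6th in the library labelled WT. The corresponding places in macrophage-like cells were 99th and 19th.

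The summed levels of the other phagocytes and dendritic cells were lower too, by different amounts. In neutrophil-like cells, which store lysozyme in granules, Lyz2 was 2971 CPM (111 cells) in the library labelled Ythdf2 cKO and 4950.1 CPM (262 cells) in the library labelled WT, a ratio of 0.600 (0.575 to 0.627), where 11.6% of genes were lower by 1.5-fold. The typical neutrophil-like cell did not show this. Thinned to 1473 UMIs, the median was 2 Lyz2 UMIs in the library labelled Ythdf2 cKO and 1 in the library labelled WT, and 73.8% of 103 cells and 65.7% of 210 cells had a Lyz2 UMI, with overlapping intervals of 64.2 to 82.0% and 58.9 to 72.1%. The means were 3.01 and 3.995 UMIs, and the log2 ratio, -0.74 from the sums, was -0.41 after thinning and -0.35 with every cell weighted equally. In cDC2-like cells, a dendritic cell type that shows antigen to helper T cells, it was 485 and 1382 CPM, a ratio of 0.351, with 4.37% of genes lower. In mature DC-like cells, the Ccr7+ migrating state, it was 463 and 2772 CPM, a ratio of 0.167 (0.154 to 0.181), with 14.3% of genes lower. Thinned to 3587 UMIs, 77.6% of 76 cells and 37.4% of 91 cells had no Lyz2 UMI, so these sums rest on part of the class. The log2 ratio of mature DC-like cells, -2.58, was -1.85 with doublets kept and -1.94 with every cell weighted equally. These 3 classes held between 82 and 374 cells per library, and the difference between their ratios has no replicate check.

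The order of the levels was therefore not the same. In the library labelled Ythdf2 cKO it ran from monocyte-like to neutrophil-like, macrophage-like, cDC2-like and mature DC-like cells, and the intervals of the last 2, 467 to 503 CPM and 429 to 499 CPM, overlapped. The library labelled WT had the same first 3 classes in the same order, but mature DC-like cells stood above cDC2-like cells with intervals that did not overlap.

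**Figure D1:**
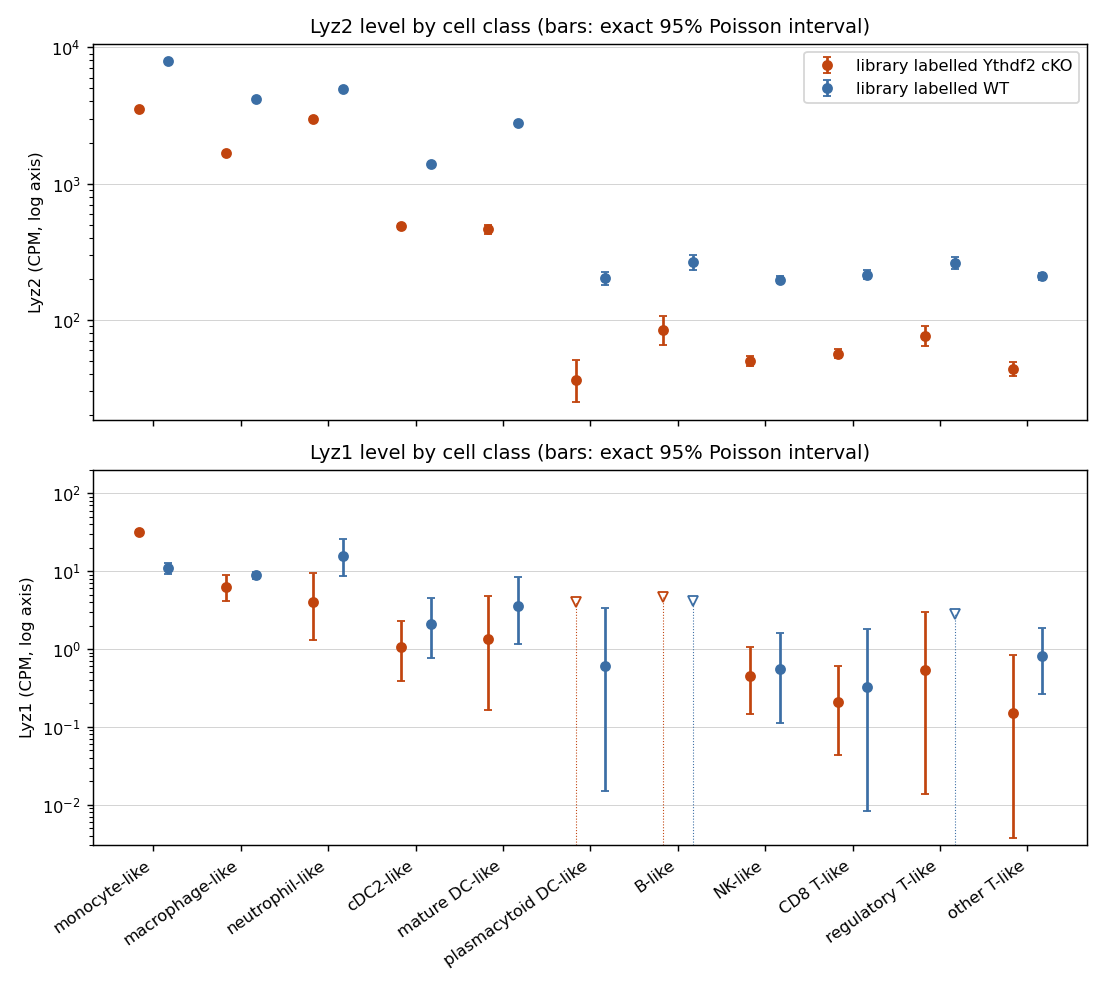
Lyz2 (top) and Lyz1 (bottom) in CPM on log axes for 11 cell classes, with the library labelled Ythdf2 cKO left of the library labelled WT; points are levels of the summed class, bars exact 95% Poisson intervals, and open triangles the upper bound where no UMI was found. Lyz2 is lower on the left of every pair, at 3539 against 7874 CPM in monocyte-like cells, while Lyz1 is higher on the left in monocyte-like cells, at 31.7 against 10.9 CPM.

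Within the monocytes the difference was present in each state. Cluster C11, led by Vcan, Fn1 and Tgfbi, had 3915 CPM of Lyz2 in the library labelled Ythdf2 cKO and 8669 CPM in the library labelled WT. Cluster C4, led by the interferon-induced genes Gbp2, Cxcl9 and Ifit2, had 3604 and 8237 CPM. Cluster C3, led by Hspa1a, Thbs1, Inhba and Ptgs2, had the lowest monocyte levels in both libraries, at 2829 and 5551 CPM. The ratios of the 3 clusters lay between 0.438 and 0.510. C4 held 1266 of the 2063 monocyte-like cells of the library labelled Ythdf2 cKO, against 307 of 1487 in the library labelled WT, and when each cluster got the weight it has in the library labelled WT, the log2 ratio was -1.13 in place of -1.15.

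The highest Lyz2 level of the myeloid clusters was in C1, left unnamed because its leading genes mix Hp and Chil3, of young monocytes, with Ace and Treml4, of non-classical monocytes that patrol vessels. It had 7409 CPM in the library labelled Ythdf2 cKO (546 cells) and 13445 CPM in the library labelled WT (534 cells), a ratio of 0.551 (0.544 to 0.558). Finer clustering separated the non-classical cells, 73.9% of them from C1. They had 3383 CPM in the library labelled Ythdf2 cKO and 7752 CPM in the library labelled WT. It also gave a cluster named monocyte-like, led by Hp, Ifitm6 and Mgst1, with all of its cells from C1. That cluster had 8991 and 15414 CPM. Macrophage cluster C7, led by Pf4, Mmp12 and C1qa, had 1898 and 4637 CPM, and the cycling macrophage cluster C24 had 1078 CPM (34 cells) and 3107 CPM (555 cells).

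**Figure D2:**
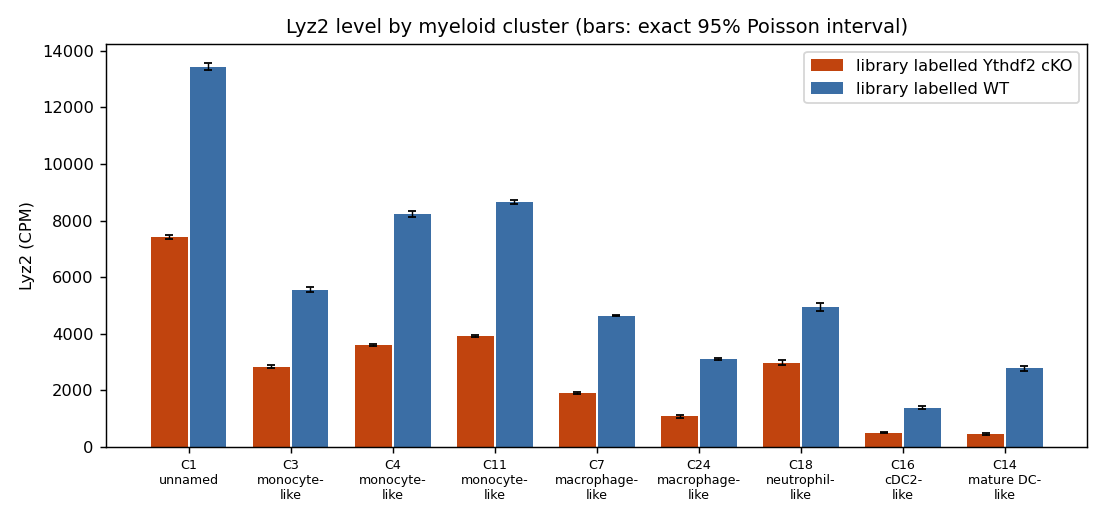
Lyz2 in CPM by myeloid cluster, with the library labelled Ythdf2 cKO left of the library labelled WT in each pair; bars start at 0 and error bars are exact 95% Poisson intervals. C1 is the highest cluster in both libraries, at 7409 and 13445 CPM, and the left bar is the lower one in all 9 pairs.

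Lyz2 was lower over the whole range of monocyte-like cells. With each monocyte-like cell thinned to 5390 UMIs, so that depth was equal, Lyz2 had a median of 16 UMIs in the library labelled Ythdf2 cKO, with 8 to 28 over the middle quartiles, and a median of 38, with 20 to 59, in the library labelled WT. Only 3.23% of 1920 cells and 0.505% of 1189 cells had no Lyz2 UMI after thinning. A single UMI cannot be told apart from background here. At the like depth of 5195 UMIs, 15.9% and 37.7% of plasmacytoid DC-like cells had a Lyz2 UMI. Whether those UMIs are free RNA was not tested. Macrophage-like cells thinned to 7648 UMIs had medians of 6 and 22 UMIs, and 16.2% of 160 cells and 0.850% of 1882 cells had none. Thinning left out 143 and 298 monocyte-like cells, and 40 and 401 macrophage-like cells, as too shallow. In cDC2-like cells the median was 1 UMI in both libraries, and the 90th percentile was 9.9 UMIs in the library labelled Ythdf2 cKO and 29.8 in the library labelled WT, so that the class was uneven.

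Droplets that also held T cell RNA were looked at apart. Among monocyte-like cells, 1583 of 2063 in the library labelled Ythdf2 cKO and 1297 of 1487 in the library labelled WT had no Cd3d, Cd3e or Cd3g UMI, and their Lyz2 log2 ratio was -1.09. For macrophage-like cells these were 91 of 200 and 1160 of 2283, with a log2 ratio of -1.11. Cluster C17, which carried both T cell and monocyte markers and was kept out of every class, had 1220.5 and 2943 CPM of Lyz2.

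Lyz1 was rare everywhere. It made up 0.805% of all lysozyme UMIs in the library labelled Ythdf2 cKO (1491 of 185224) and 0.183% in the library labelled WT (662 of 361651). In monocyte-like cells Lyz1 stood at 31.7 CPM (944 UMIs) in the library labelled Ythdf2 cKO and at 10.9 CPM (133 UMIs) in the library labelled WT, a ratio of 2.92 (2.44 to 3.53), or 1.47 on the log2 scale; 5.14% of genes were at least 1.5-fold higher in this class. This is the opposite direction to Lyz2 in the same cells summed, but not in every monocyte cluster. Lyz1 was 36.7 and 9.82 CPM in C4 and 37.5 and 5.02 CPM in C3. In C11 it was 9.80 and 13.5 CPM, a ratio of 0.724 (0.510 to 1.02). In macrophage-like cells Lyz1 was 6.21 CPM (30 UMIs) and 8.79 CPM (397 UMIs), a ratio of 0.706 whose interval of 0.470 to 1.02 includes equal levels. Its direction turned with marker gates per cell (log2 ratio 1.85) and with a limit of 5% mitochondrial UMIs (1.23), so no direction is given for this class. Neutrophil-like cells held 5 and 15 Lyz1 UMIs, at 3.997 and 15.5 CPM, and 13 of the 15 came from 1 cell, so no direction is given. The cDC2-like cells held 6 in each library. B-like cells held none in either library, where 3 counts would allow up to 3.82 CPM in the library labelled Ythdf2 cKO and 3.34 CPM in the library labelled WT.

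The higher Lyz1 of monocyte-like cells rested on a few cells. In the library labelled Ythdf2 cKO, 34 of 9086 kept cells had 10 or more Lyz1 UMIs and together held 1236 of its 1491 UMIs, or 82.9%. In the library labelled WT, 12 of 10992 cells did and held 232 of 662, or 35.05%. As many of the highest Lyz2 cells held 5.12% and 2.15% of Lyz2 UMIs, so Lyz2 had no such concentration. The highest single cell had 95 Lyz1 UMIs in the library labelled Ythdf2 cKO and 44 in the library labelled WT. Leaving out the 17 monocyte-like cells of the library labelled Ythdf2 cKO and the 3 of the library labelled WT that passed this number gave 5.23 CPM in each, a ratio of 0.999 (0.742 to 1.36). The share of monocyte-like cells with any Lyz1 UMI was 4.51% (93 of 2063) and 3.50% (52 of 1487), at median depths of 13044 and 7516 UMIs. Thinned to 1 depth, these shares were 2.97% and 2.52%, and their intervals of 2.26 to 3.83% and 1.71 to 3.58% overlapped. The choice of 10 UMIs was made after the values were seen.

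The cells with 10 or more Lyz1 UMIs were spread over states. In the library labelled Ythdf2 cKO they were 13 cells of C4, 10 of C1, 6 of the mixed cluster C17, 3 of C3, and 1 each of C11 and C7. In the library labelled WT 6 were in macrophage cluster C7, 2 in C11, and 1 each in C1, C4, C17 and neutrophil cluster C18. As these cells were chosen for their many Lyz1 UMIs, their Lyz1 beside their Lyz2 is only a description. The 28 that lay in the monocyte and macrophage clusters or C1 of the library labelled Ythdf2 cKO held 1061 Lyz1 UMIs and 2166 Lyz2 UMIs, and the 10 of the library labelled WT held 203 and 2158. Their Lyz2 level was 4826 CPM in the library labelled Ythdf2 cKO, against 3900 CPM in cells of the same clusters without Lyz1, and 10229 CPM in the library labelled WT, against 5197 CPM. The corresponding Ythdf2 levels were 263 CPM in the library labelled Ythdf2 cKO, against 405 CPM without Lyz1, and 52.1 CPM (11 UMIs) in the library labelled WT, against 73.5 CPM.

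**Figure D3:**
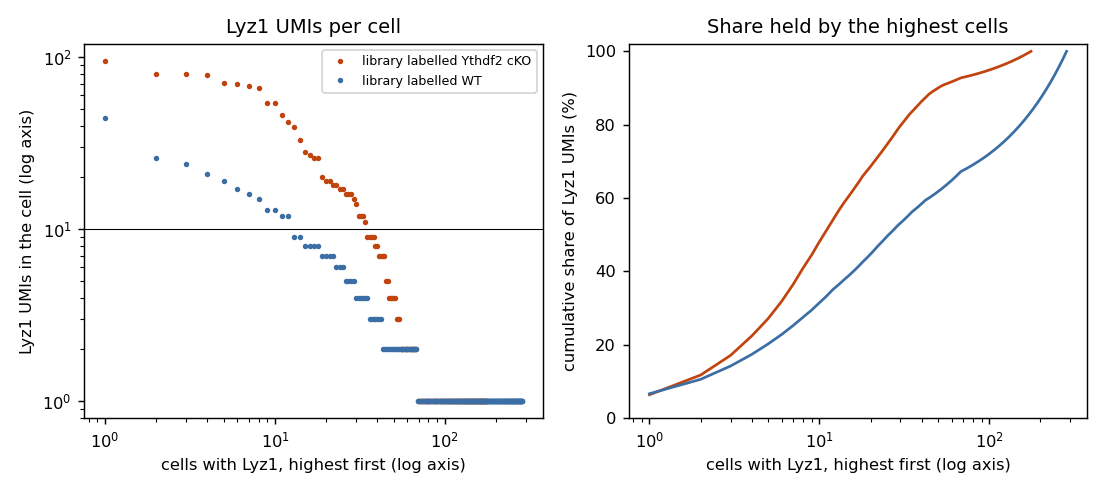
Left, Lyz1 UMIs in each cell that had any, ordered from the highest, on log axes, with a line at 10 UMIs; right, the cumulative share of each library's Lyz1 UMIs held by those cells, in percent. The library labelled Ythdf2 cKO (listed first) has 34 cells at or above the line and the library labelled WT has 12, which hold 82.9% and 35.05% of Lyz1 UMIs.

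Lymphoid cells are not known to make lysozyme, and their Lyz2 is the background against which the myeloid levels are read. Lyz2 stood at 84.1 CPM in B-like cells of the library labelled Ythdf2 cKO and at 264 CPM in those of the library labelled WT, a ratio of 0.319 (0.239 to 0.421), where 12.3% of genes were lower by 1.5-fold. NK-like cells had 49.7 and 196 CPM (2.43% of genes lower), CD8 T-like cells 56.5 and 214 CPM (5.55%), regulatory T-like cells 76.4 and 262 CPM (7.32%), and the other T-like cells 43.7 and 208 CPM (3.37%). Plasmacytoid DC-like cells, set beside the lymphoid classes, had 35.9 and 201 CPM (8.23%). Of the 336 UMIs of the library labelled WT, 158 came from 1 cell, without which the level there was 108 CPM. Their log2 ratio of -2.45 was -0.55 with doublets kept, and that of CD8 T-like cells, -1.90, was -1.03 at a clustering resolution of 2. Across these classes the levels ran from 35.9 to 84.1 CPM in the library labelled Ythdf2 cKO and from 196 to 264 CPM in the library labelled WT. The library labelled Ythdf2 cKO was below the library labelled WT in every class.

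A few lymphoid-named cells with much Lyz2 moved these low sums. Cells with 10 or more Lyz2 UMIs numbered 10 of 1501 CD8 T-like cells in the library labelled Ythdf2 cKO and 5 of 354 in the library labelled WT, and held 337 of 813 and 319 of 659 UMIs. Without such cells the levels were 34.0 and 116 CPM in CD8 T-like cells, 65.6 and 264 CPM in B-like cells, and 45.9 and 190 CPM in NK-like cells. With a limit of 5% mitochondrial UMIs, the cluster named B-like was redrawn and its Lyz2 ratio turned round, to 1046 CPM in the library labelled Ythdf2 cKO and 892 CPM in the library labelled WT. There 6 cells of the library labelled Ythdf2 cKO held 409 of 439 UMIs and 7 of the library labelled WT held 398 of 557, and without them the levels were 89.2 and 288 CPM.

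Set against the myeloid cells of the same library, the lymphoid Lyz2 level was a smaller share in the library labelled Ythdf2 cKO. Across the lymphoid classes it was 1.29 to 2.49% of the myeloid level (3382 CPM) in the library labelled Ythdf2 cKO and 3.78 to 5.08% of the myeloid level (5184 CPM) in the library labelled WT. For Csf1r, the receptor of a macrophage growth factor, the shares were 1.72 to 4.01% and 3.71 to 7.41%, and for C1qa, a complement subunit of macrophages, 2.97 to 7.52% and 3.30 to 5.68%. C1qb had 2.69 to 6.86% and 3.31 to 6.88%, S100a8 0 to 0.914% and 1.27 to 4.96%, and S100a9 0 to 1.25% and 1.32 to 5.75%. The other myeloid genes looked at had far larger shares in some lymphoid classes. Apoe reached 95.1% and 27.1% in B-like cells and Plac8 17.4% and 46.5%, while Ccr2 reached 75.3% and 184% in regulatory T-like cells. Myeloid cells were 39.2% of kept cells in the library labelled Ythdf2 cKO and 49.2% in the library labelled WT. The share of lymphoid cells with a Lyz2 UMI differed likewise. It was 19.1 to 27.1% across the lymphoid classes of the library labelled Ythdf2 cKO and 42.1 to 56.2% in the library labelled WT, although median depths were higher in the library labelled Ythdf2 cKO. Thinned to 1 depth per class it was 10.7 to 14.03% and 32.7 to 36.3%. Subtracting the B-like level of the same library left the monocyte log2 ratio at -1.14 and the macrophage log2 ratio at -1.29.

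Cell by cell, Lyz2 did not go down where Ythdf2 was high in the library labelled Ythdf2 cKO. After thinning, its monocyte-like cells with 0, 1, 2 and 3 or more Ythdf2 UMIs had 3396, 3406, 3537 and 3964 CPM of Lyz2. Those of the library labelled WT with 0, 1 and 2 Ythdf2 UMIs had 8287, 7743 and 7347 CPM, the last from 30 cells. Cells without a Ythdf2 UMI differed between the libraries in the same direction as cells with one. They were 19.9% of monocyte-like cells in the library labelled Ythdf2 cKO and 76.6% in the library labelled WT. A count of 0 can be a missed RNA, so the bins are not like groups across libraries. Whether the Lyz2 difference depends on Ythdf2 was not tested. In macrophage-like cells the 4 levels were 654 (24 cells), 1454, 1250.0 and 1827 CPM in the library labelled Ythdf2 cKO and 4383, 3893, 4174 and 3415 CPM in the library labelled WT. Spearman's rho between Lyz2 and Ythdf2 was 0.104 over 1920 monocyte-like cells and 0.312 over 160 macrophage-like cells of the library labelled Ythdf2 cKO. In the library labelled WT it was -0.057 over 1189 and -0.047 over 1882 cells. The cells of a library share its depth and free RNA, so these values are descriptions. Within the library labelled Ythdf2 cKO, rho of Lyz2 with the general myeloid genes Tyrobp, Fcer1g and Ctss was 0.496, 0.280 and 0.359 in the same macrophage-like cells, and 0.411, -0.003 and -0.035 in monocyte-like cells. Lyz1 in the monocyte-like cells with 0, 1, 2 and 3 or more Ythdf2 UMIs stood at 98.8, 23.7, 7.79 and 13.1 CPM in the library labelled Ythdf2 cKO, a sum that the few cells with much Lyz1 enter, and at 13.4 and 20.6 CPM with 0 and 1 Ythdf2 UMI in the library labelled WT, where the 30 cells with 2 held 0 Lyz1 UMIs (upper bound 22.8 CPM). Weak values in sparse counts are no finding.

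**Figure D4:**
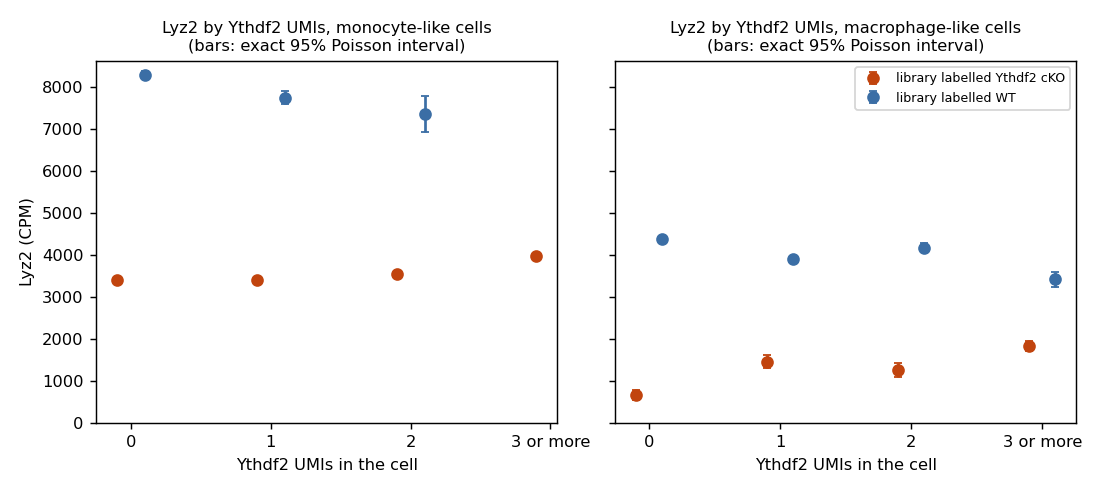
Lyz2 in CPM by the number of Ythdf2 UMIs in the cell, after thinning to 5390 UMIs (monocyte-like, left) or 7648 UMIs (macrophage-like, right), with the library labelled Ythdf2 cKO left of the library labelled WT in each bin; bars are exact 95% Poisson intervals, and bins under 20 cells are not drawn. The library labelled Ythdf2 cKO is lower in every bin drawn for both, at 0 Ythdf2 UMIs with 3396 against 8287 CPM in monocyte-like cells. That bin holds 19.9% and 76.6% of those cells, so it is not a like group in the 2 libraries.

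Lysosome genes were counted next. All 28 genes of the list, from cathepsins to Lamp1 and Cd68, were measured in both classes. In monocyte-like cells 1 was lower and 0 were higher by 1.5-fold, beside 2.58% of all genes lower and 5.14% higher, with a median log2 ratio of 0.02 beside -0.06 over all genes. The lower one was Cd63, a lysosome membrane protein, at 64.2 CPM in the library labelled Ythdf2 cKO and 99.7 CPM in the library labelled WT. Ctsd, a lysosomal protease, was 347 and 499 CPM, and Npc2, a carrier of cholesterol, was 1707 and 1282 CPM. In macrophage-like cells none of the 28 passed 1.5-fold in either direction, beside 2.46% of all genes lower and 5.14% higher, and the median was 0.01, as it was over all genes.

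Genes that sense or handle peptidoglycan, the substrate of lysozyme, were counted against the same shares of all genes. Of 10 measured in monocyte-like cells, 1 was higher and 0 were lower. It was Nod1, a sensor of peptidoglycan fragments, with 46.2 CPM in the library labelled Ythdf2 cKO and 28.7 CPM in the library labelled WT. Of 9 measured in macrophage-like cells, 2 were higher, among 5.14% of all genes, and 0 lower. They were Ripk2, the kinase that acts after Nod1 and Nod2, at 17.8 and 11.3 CPM, and Pglyrp1, a peptidoglycan-binding protein, at 37.7 and 24.5 CPM. For the next lists too the shares over all genes were 2.58% lower and 5.14% higher in monocyte-like cells, and 2.46% lower and 5.14% higher in macrophage-like cells. Among 10 measured antimicrobial granule genes, 1 was higher and 1 lower in monocyte-like cells, and 1 was higher and 2 lower in macrophage-like cells. In monocyte-like cells the higher one was S100a8, at 12.1 and 6.94 CPM, and the lower one S100a9, at 5.58 and 10.2 CPM. The lower ones of macrophage-like cells were the calprotectin genes S100a8, at 7.03 and 32.8 CPM, and S100a9, at 2.90 and 50.9 CPM. The higher one was Chil3, a chitinase-like protein, at 101 and 40.2 CPM. Of 12 myeloid transcription factors measured, 1 was higher in monocyte-like cells, Irf8 at 459 and 208 CPM, and 3 were higher in macrophage-like cells, with 0 lower in either class. Those 3 were Cebpb, at 729.8 and 468 CPM, Nr4a1, at 107 and 69.0 CPM, and Irf8, at 375 and 246 CPM. Of 10 lysozyme family genes in the files, only Lyz1 and Lyz2 reached 10 CPM in either class.

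The neighbours of the locus differed less. Within 250 kb lay 13 features, both members among them, and 4 others reached 10 CPM in either library of at least 1 of the main classes. Cct2, a chaperonin subunit, had 161 CPM in monocyte-like cells of the library labelled Ythdf2 cKO and 201 CPM in those of the library labelled WT, a log2 ratio of -0.32. Yeats4, a chromatin reader, had 45.4 and 54.9 CPM, and Cpsf6, an RNA cleavage factor, had 44.1 and 46.8 CPM. Frs2, an adaptor of growth factor receptors, had 9.65 and 9.71 CPM.

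The genes whose levels over the 22 sums of 11 classes and 2 libraries were most like those of Lyz2 were Ccl6, Hacd4, F13a1, Lst1 and Clec4a2, with Pearson's r of 0.951 to 0.969 on the log2 scale. The sums share their libraries and the split between myeloid and lymphoid cells, and F13a1 was among the markers used to name monocytes. Ccl6, a chemokine, was 510 CPM in monocyte-like cells of the library labelled Ythdf2 cKO and 932 CPM in those of the library labelled WT, but 562 and 580 CPM in macrophage-like cells. F13a1, a clotting factor subunit, stood at 288 and 379 CPM among monocyte-like cells, and its macrophage-like levels were 121 and 218 CPM. The log2 ratios of Ccl6, Hacd4, F13a1, Lst1 and Clec4a2 were -0.87, 0.11, -0.40, -0.0025 and -0.58 in monocyte-like cells and -0.05, -0.65, -0.84, -0.11 and -0.16 in macrophage-like cells. All 5 were below 0 in macrophage-like cells, and closer to 0 than the Lyz2 value of -1.31. Lyz1 came 106th of 5522 genes, with r of 0.883. The genes most like Lyz1 were Thbs1, Cstb, Cxcl2, Klra2 and BC005537, with r of 0.908 to 0.918. Lyz1 had few UMIs in many of the sums, and 0 in B-like cells, so this likeness rests on sparse counts. In monocyte-like cells their log2 ratios were -0.94, 0.29, -0.54, -0.52 and 0.13, beside 1.47 for Lyz1. Those of macrophage-like cells were 0.36, 0.28, -0.24, 0.46 and 0.04, beside -0.44 for Lyz1.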

How the data were processed

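The deposited count matrices hold whole-number UMI counts per gene and cell barcode, made by the authors with Cell Ranger 5.0.1 on mm10, per the submitters' processing notes, which also name Seurat 4.0.4; the file header gives cellranger 5.0.0. The 2 libraries hold 11398 barcodes (labelled Ythdf2 cKO, 121321782 UMIs) and 14404 (labelled WT, 128952491 UMIs), and 43 barcode sequences occur in both.

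Cells with at least 200 genes and at most 10% mitochondrial UMIs were kept. The highest Scrublet scores, a share of cells set by the size of the library, were removed as doublets (7.89% of cells, or 779, and 9.74%, or 1187); Scrublet's automatic threshold marked 0 and 2 and was not used. Cells were clustered together with scanpy 1.11.5 (2000 variable genes, 30 components, 15 neighbours, Leiden resolution 1). Lyz1, Lyz2, Ythdf2 and the listed genes that are no markers were kept out of the variable genes. Clusters were named from marker lists. Class totals of each library were turned into CPM, and log2 ratios use CPM plus 1. Intervals are exact at 95% (Poisson for levels, Clopper-Pearson for shares, conditional binomial for ratios) and cover counting error only. A cell type of the study may differ from these rebuilt classes. The code was tested on simulated data.

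The members, markers, lists and rules were chosen with earlier results of these data known. Named genes were the members, Ythdf2, the 5 genes most like each member, neighbours within 250 kb, and the 2 most extreme measured genes of each list in each direction. Lists were counted at 10 CPM and 1.5-fold. Alternatives changed the filters, doublets, resolution, naming, scaling, weights, depth and pseudocount.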

Additional observations from a re-analysis of the deposited data

Results flagged for a closer look

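The Lyz1 log2 ratios of the 2 main classes had opposite signs, but no opposite movement is shown. The log2 ratio, library labelled Ythdf2 cKO over library labelled WT, was 1.47 in monocyte-like cells and -0.44 in macrophage-like cells. The difference was not tested, as each group is 1 library. The interval of the macrophage ratio includes equal levels and its sign turned under other processing, and the monocyte ratio rests on 17 cells of the library labelled Ythdf2 cKO and 3 of the library labelled WT, without which the ratio of the 2 levels was 0.999 on the linear scale.

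Barcodes left out for over 10% mitochondrial UMIs also held Lyz1, at 9.27 CPM (40 UMIs) in the library labelled Ythdf2 cKO and 3.23 CPM (21 UMIs) in the library labelled WT. Lyz2 in the same barcodes was 858 and 1466 CPM.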

How the results depend on the processing

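Log2 ratios are given for Lyz2 in monocyte-like, macrophage-like and B-like cells (-1.15, -1.31 and -1.64 in the report) and for Lyz1 in monocyte-like and macrophage-like cells (1.47 and -0.44). Lyz2 stayed below 0 in monocyte-like cells (-1.16 to -0.94) and macrophage-like cells (-1.50 to -0.80) under every alternative run. At least 500 genes per cell gave Lyz2 -1.05 in monocyte-like and -1.21 in macrophage-like cells. At most 5% mitochondrial UMIs gave Lyz2 -1.13, -1.21 and 0.23, and Lyz1 2.04 and 1.23; plasmacytoid DC-like cells also turned round, to 0.39. Keeping doublets gave Lyz2 -1.03, -1.13 and -1.07, and Lyz1 2.05 in monocyte-like cells. Resolution 0.5 gave Lyz2 -1.27 in macrophage-like cells, and resolution 2 gave -1.05 in monocyte-like and -1.26 in macrophage-like cells. Marker gates gave Lyz2 -0.94 and -0.80, and Lyz1 2.01 and 1.85, in monocyte-like and macrophage-like cells. Median-of-ratios size factors gave Lyz2 -1.06 in monocyte-like cells. Equal weight for every cell gave Lyz2 -1.11 and -1.47, and Lyz1 1.11 in monocyte-like cells. Giving each cluster its weight in the library labelled WT gave Lyz2 -1.13 and -1.34, and Lyz1 0.92 in monocyte-like cells; this was not run for B-like cells, which were 1 cluster. Thinning gave Lyz2 -1.50 in macrophage-like and Lyz1 1.07 in monocyte-like cells. A pseudocount of 10 CPM gave Lyz1 1.00 in monocyte-like cells. Subtracting the B-like level gave Lyz2 -1.14 in monocyte-like cells. Chosen after seeing the data were the next 4. Leaving out cells with Cd3 UMIs gave Lyz2 -1.09 and -1.11, and Lyz1 -2.66 in macrophage-like cells. Counting C1 as monocyte-like gave Lyz2 -1.11. Leaving out cells with 10 or more Lyz1 UMIs turned the monocyte Lyz1 ratio to -0.0010. Leaving out cells with 10 or more Lyz2 UMIs gave B-like cells -1.99. The 8 other Lyz2 ratios were below 0 in 75 of 76 values, but moved most for plasmacytoid DC-like cells (-2.45, and -0.55 with doublets kept), CD8 T-like cells (-1.90, and -1.03 at resolution 2), mature DC-like cells (-2.58, and -1.85 with doublets kept) and neutrophil-like cells (-0.74, and -0.35 with equal weight for every cell). Without the filter on low values, genes lower and higher by 1.5-fold numbered 583 and 585 in monocyte-like cells (186 and 370 with it) and 599 and 907 in macrophage-like cells (199 and 417). By share this was 3.31% and 3.32% of 17617 genes in monocyte-like cells (2.58% and 5.14% of 7205 with it). In macrophage-like cells it was 3.23% and 4.90% of 18529 genes (2.46% and 5.14% of 8105). Except where cells left out show it, the cause was not tested. No paired analysis was possible because each group is 1 library. Lyz1 counts limit its precision: the library labelled Ythdf2 cKO held 30 UMIs in macrophage-like cells.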

Other observations

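Barcodes and clusters outside the 11 classes did not all go one way. Barcodes with under 200 genes held 184 CPM of Lyz2 in the library labelled Ythdf2 cKO (274 barcodes, 47 UMIs) and 512 CPM in the library labelled WT (174 barcodes, 73 UMIs). Barcodes removed by doublet score held 1880.0 and 3326 CPM. Cluster C20 was of low depth, and was left unnamed for low Ptprc, the gene of CD45. Its Lyz2 was 1788 CPM (190 cells) in the library labelled Ythdf2 cKO and 4265 CPM (425 cells) in the library labelled WT. Unnamed cluster C5, with T cell markers, had 41.3 and 154 CPM. Mast or basophil cluster C22 had 80.4 CPM (14 cells) and 1704 CPM (41 cells). Among non-immune clusters the direction of the summed levels differed. Melanocytic cluster C23 had 154 CPM (22 cells) in the library labelled Ythdf2 cKO and 129.98 CPM (165 cells) in the library labelled WT, a ratio of 1.19 (1.03 to 1.37). The share of its cells with a Lyz2 UMI went the other way, at 50% and 80%. Endothelial cluster C25 had 842 CPM (7 cells) and 464 CPM (37 cells), a ratio of 1.81 (1.47 to 2.23). Its 117 Lyz2 UMIs in the library labelled Ythdf2 cKO came from 3 of the 7 cells. Fibroblast cluster C26 had 0 Lyz2 UMIs (2 cells) in the library labelled Ythdf2 cKO and 224 CPM (25 cells) in the library labelled WT.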
